A study of Caenorhabditis elegans with 6 samples.

Results

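The genes described here encode the proteins of the cytosolic ribosome of the nematode Caenorhabditis elegans. They were chosen as the rows of the deposited array table whose platform annotation gave exactly 1 gene symbol beginning with rpl-, rps- or rla-, with 1 row kept per gene. The rule found 75 genes among 26192 annotated rows, 45 of the large subunit and 30 of the small subunit, each with 1 row. No symbol began with rla-, because the acidic stalk genes are now named rplp- in the annotation; the 4 rplp- genes, rpsa-1, ubq-2 and rack-1 are therefore given separately. The study kept wild-type N2 hermaphrodites on agar and Escherichia coli OP50 food that both held sodium perchlorate at 1 mg/mL, from the first larval stage for 48 hours at 20 °C, until the L4 stage (perchlorate, n = 3 arrays), and compared them with L4 larvae grown on plain medium for the same time (control, n = 3 arrays). Both groups were whole larvae of a single wild-type strain from bleach-synchronised cultures, and their RNA was hybridised to 1-colour Affymetrix arrays. The culture notes filed with the control larvae also mention perchlorate, whereas their titles and treatment entries call them controls; the titles were followed. In RNA of whole animals, fewer cells of a type and less RNA per cell cannot be told apart.

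The cytosolic ribosome joins a small subunit, which reads the messenger RNA, to a large subunit, which forms the peptide bond and passes the growing chain through an exit tunnel. Its proteins are needed in nearly equal numbers, and their transcripts are among the most abundant in growing larvae. In many eukaryotes these genes are known to be regulated as a group when growth or nutrient supply changes. The perchlorate anion is an oxidant, best known in vertebrates because it keeps iodide out of the thyroid.

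No cytosolic ribosomal protein transcript passed the test between larvae raised with and without perchlorate, and the differences measured were small. Over the 75 genes the median log2 difference, perchlorate minus control, was -0.021, which is 0.986 of the control level, and single genes lay between -0.18 (rpl-13A) and 0.23 (rpl-37.1). At a limma adjusted p under 0.05, 0 of the 75 genes were higher and 0 lower, beside 0.00764% of all tested rows. The smallest limma adjusted p among the 75 was 0.471. At an unadjusted limma p under 0.05 the count was also 0 of 75, whereas 16.4% of all tested rows passed (8.46% higher and 7.92% lower). The 3 perchlorate values and the 3 control values did not overlap for 5 of the 75 genes (6.67%), 2 higher and 3 lower, beside 24.0% of all tested rows (12.8% higher and 11.2% lower). Among the 1310 brightest rows, those above the 95th percentile of mean level, 15.1% passed at an unadjusted p under 0.05 (6.64% higher and 8.47% lower), and 35.4% were without overlap (17.3% higher and 18.2% lower).

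The differences were also bounded. For each gene the 95% interval of its log2 difference was taken from the limma fit. All 75 intervals lay within a 1.5-fold change either way, beside 52.8% of the tested rows, and 19 of the 75 lay within a 1.2-fold change, beside 0.897% of rows. The width of these intervals depends on the prior, since all 75 genes had an SD under the prior SD of 0.181; with a trended and robust prior 64 of the 75 lay within a 1.2-fold change. The lowest bound was -0.47, in rps-20, and the highest 0.58, in rpl-37.1. The median SE was 0.104 for the 75 genes and 0.153 over all rows. Replicates of these genes were close, with median SDs of 0.059 on the perchlorate arrays and 0.041 on the control arrays. Over all rows these were 0.193 and 0.147. Bright rows were closer than rows in general. Among the 1310 brightest rows, which held 71 of the 75 genes, the median SDs were 0.099 and 0.058 and the median SE 0.112. The interval shares were taken over all tested rows only.

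**Figure D1:**
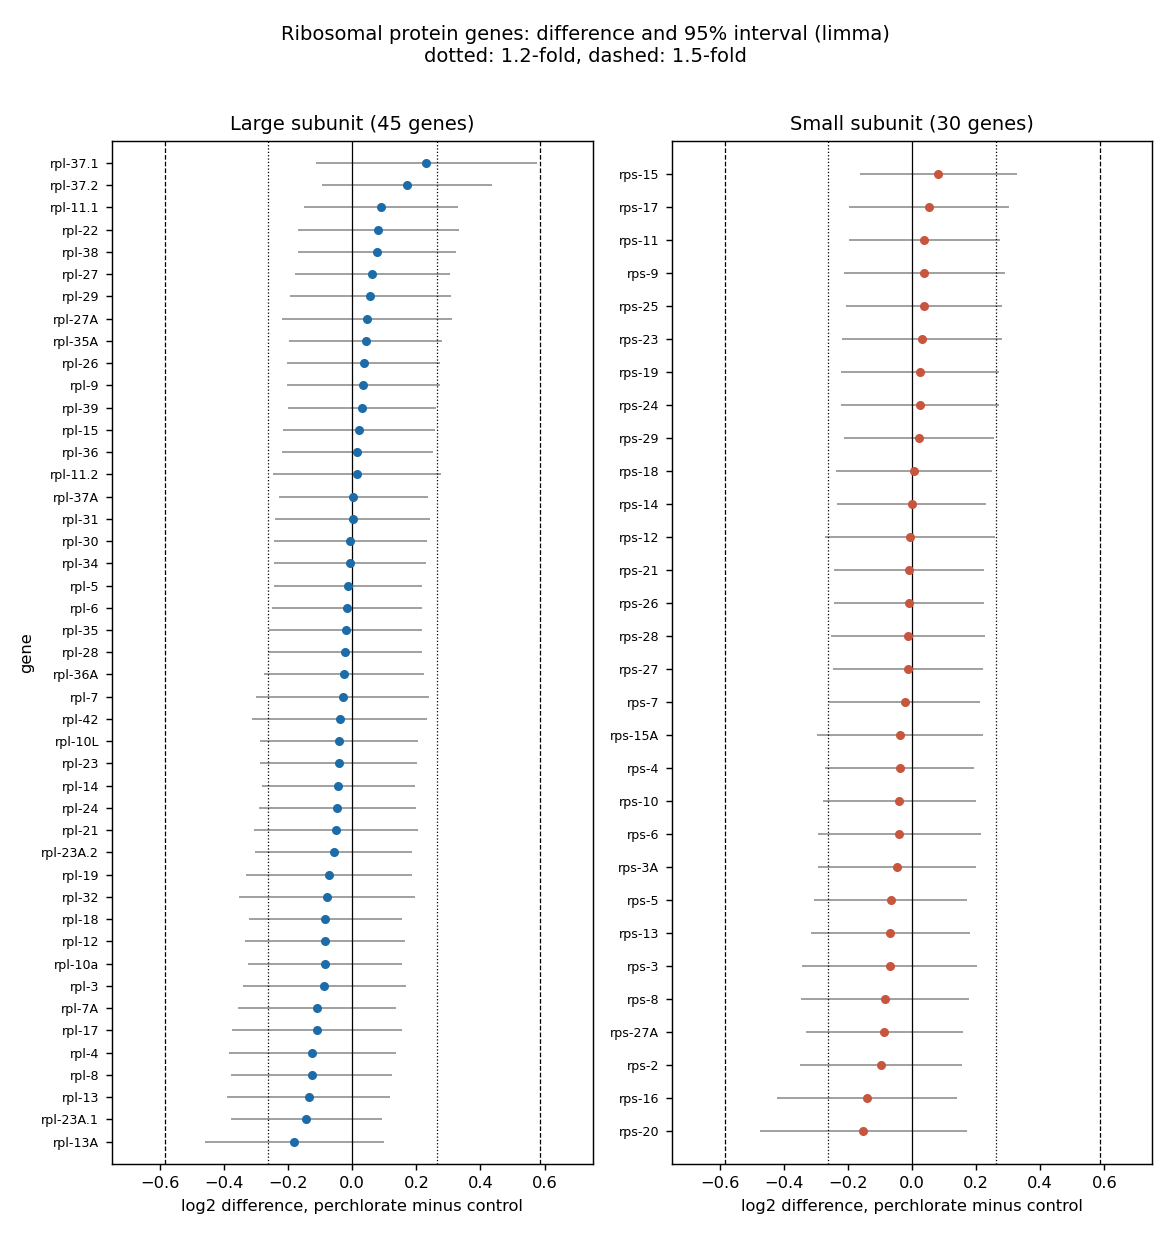
Log2 difference (perchlorate minus control, x axis) of each of the 75 ribosomal protein genes (y axis), with the 95% interval from limma as a grey bar, for the large subunit on the left and the small subunit on the right; dotted and dashed lines mark a 1.2-fold and a 1.5-fold change. Every interval crosses 0 and stays inside the dashed lines, and rpl-37.1 and rpl-37.2 lie highest.

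The place of these genes on the arrays bears on how such values are read. Of the 75 genes, 71 had a mean level above the 95th percentile of the tested rows and 63 above the 99th, where they made up 24.0% of the rows. The submitters' processing notes name RMA, a method that quantile-normalises the arrays, and the 99th percentile lay between 11.95 and 12.06 on all 6 arrays, so a change shared by most of the brightest transcripts could be reduced in these values. Its part was not tested. The remaining 4 genes were rpl-37.1, with a mean log2 level of 9.12, and rpl-42, rpl-29 and rps-15A, with mean levels of 6.99, 6.99 and 6.0, near the array medians of 5.81 to 5.89. For these last 3 genes the log2 differences were -0.039, 0.057 and -0.038, but the files do not settle whether such dim probe sets measure the genes well, and their intervals carry the same doubt.

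The large and small subunits gave nearly the same medians. In the large subunit the median log2 difference was -0.023, with 17 genes above 0 and 28 below, and in the small subunit it was -0.013, with 10 above and 20 below. Together 48 of the 75 genes (64.0%) lay below 0, beside 44.8% of all tested rows and 54.4% of the brightest rows. The difference between these medians, large minus small, was -0.01. On single arrays the large-subunit median minus the small-subunit median, each taken relative to the control means, was -0.0082, -0.006 and -0.002 with perchlorate and -0.0098, -0.008 and -0.003 in controls. These ranges overlap. The quartiles of the genes ran from -0.078 to 0.029 in the large subunit and from -0.062 to 0.024 in the small subunit. The 5 genes without overlap were all of the large subunit, 11.1% of its genes, beside 0% in the small subunit and 24.0% of all tested rows.

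What variation there was lay more between arrays than between groups. Relative to each gene's control mean, the median of the 75 genes was -0.041, 0.027 and -0.042 on perchlorate replicates 1, 2 and 3, and 0.013, -0.026 and 0.012 on control replicates 1, 2 and 3. Perchlorate replicate 2 thus stood above the other perchlorate arrays, and control replicate 2 below the other controls, in both subunits. Within the perchlorate group 56 of the 75 genes (74.7%) had their highest value on replicate 2, beside 31.2% of all tested rows and 55.2% of the brightest rows. Within the controls 49 of the 75 (65.3%) had their lowest value on replicate 2, beside 28.8% of all rows and 40.7% of the brightest rows. Without perchlorate replicate 2, the groups did not overlap for 37 of the 75 genes (49.3%), 7 higher and 30 lower, beside 37.4% of all rows, and the median log2 difference was -0.037. At an unadjusted limma p under 0.05 the count stayed at 0 genes, beside 17.5% of rows. Among the brightest rows 35.4% were without overlap with all arrays, and their share without perchlorate replicate 2 was not taken. When the table was quantile-normalised again, the median over the 75 genes was 0.00083 and 36 genes lay below 0, beside 48 as deposited, so the sign of this median depends on the scaling.

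**Figure D2:**
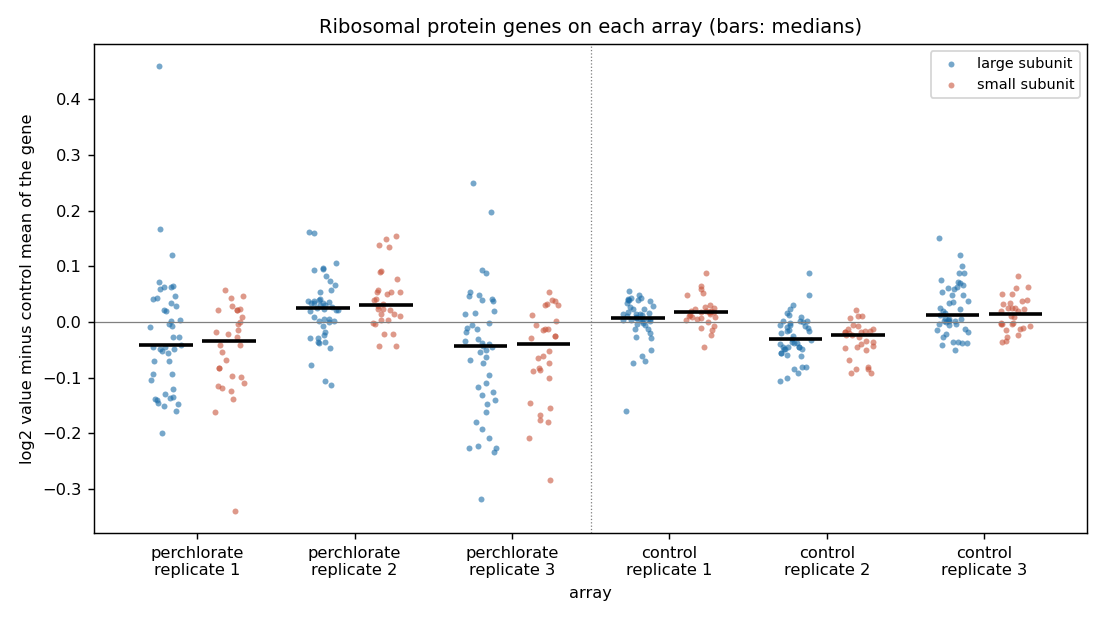
Each point is a ribosomal protein gene on an array, as its log2 value minus the gene's mean over the 3 control arrays (y axis), for the 3 perchlorate arrays on the left and the 3 control arrays on the right (x axis); blue is the large subunit, red the small subunit, and bars are medians. The medians of both subunits move together, above 0 on perchlorate replicate 2 and below 0 on control replicate 2.

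The rpl-37 pair stood highest of all. rpl-37.1 and rpl-37.2 encode versions of a small zinc-binding protein of the large subunit. rpl-37.1 was at a log2 level of 9.46, 9.04 and 9.20 on the perchlorate arrays and 8.93, 8.92 and 9.15 on the control arrays. Its perchlorate values were mostly the higher ones, but replicate 2 lay below the highest control. The difference was 0.23 (SE 0.146, limma adjusted p = 0.471), and without perchlorate replicate 1 it was 0.117. For rpl-37.2 the levels were 11.074, 11.002 and 11.157 with perchlorate and 10.832, 10.861 and 11.026 in controls. Here too 1 perchlorate value lay below the highest control value, and the difference was 0.17 (SE 0.113, limma adjusted p = 0.491). Probes of such paralogues may share sequence, and the files do not show how far their signals are separate.

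Of the genes of the 5S rRNA particle, which joins the large subunit during assembly, rpl-11.1 lay above 0 and rpl-5 and rpl-11.2 close to 0. rpl-5 differed by -0.013. Of the paralogues encoding the L11 protein, rpl-11.1 was at 13.053, 13.038 and 12.974 with perchlorate and 12.971, 12.944 and 12.881 in controls, so that the groups did not overlap, though by a small margin. Its difference was 0.09 (SE 0.102, limma adjusted p = 0.702). rpl-11.2 was at 12.41, 12.24 and 12.44 with perchlorate and 12.35, 12.30 and 12.40 in controls, with perchlorate values on both sides of the controls. Its difference was 0.014 (SE 0.111), and it was below 0 when any 1 of perchlorate replicate 1, perchlorate replicate 3 and control replicate 2 was left out.

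Proteins of the peptide exit tunnel and its rim, where nascent chains meet chaperones and targeting factors, were encoded by 9 of the measured genes, 6 of them below 0 and 3 above, with a median of -0.058. rpl-23A.1, whose product forms part of the docking site at the tunnel exit, was at 11.512, 11.565 and 11.509 with perchlorate and 11.709, 11.669 and 11.636 in controls. The groups did not overlap, and the difference was -0.14 (SE 0.1, limma adjusted p = 0.519). Its paralogue rpl-23A.2 was at 12.19, 12.29 and 12.14 with perchlorate and 12.30, 12.23 and 12.27 in controls, which overlap, with a difference of -0.058 (SE 0.104). For rpl-39, a very small protein lining the tunnel, the levels were 13.54, 13.53 and 13.55 with perchlorate and 13.52, 13.50 and 13.51 in controls. The groups did not overlap, yet the difference was only 0.029 (SE 0.098, limma adjusted p = 0.906). rpl-4 and rpl-17, whose products line the tunnel deeper inside, differed by -0.12 and -0.11, and rpl-26 and rpl-35, at its rim, by 0.036 and -0.021.

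The 3 measured genes of the peptidyl transferase region, where the peptide bond is made, were slightly below 0, as were 64.0% of the 75 genes. rpl-8 was at 12.75, 12.85 and 12.67 with perchlorate and 12.92, 12.88 and 12.84 in controls. Perchlorate replicate 2 alone reached into the control range, and the difference was -0.13 (SE 0.106, limma adjusted p = 0.596). rpl-3 and rpl-10L differed by -0.087 and -0.04.

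Elsewhere in the large subunit the lowest difference was in rpl-13A, whose mammalian homologue also acts outside the ribosome as a translational silencer. rpl-13A was at 12.211, 12.388 and 12.092 with perchlorate and 12.382, 12.385 and 12.465 in controls. Replicates 1 and 3 lay below every control and replicate 2 within the control range, giving a difference of -0.18 (SE 0.119, limma adjusted p = 0.491), or -0.111 without perchlorate replicate 3. rpl-13 was at 12.969, 13.087 and 12.881 with perchlorate and 13.120, 13.132 and 13.093 in controls, without overlap, and differed by -0.14 (SE 0.108, limma adjusted p = 0.572). The third gene lower without overlap, rpl-18, was at 13.22, 13.33 and 13.29 with perchlorate and 13.38, 13.35 and 13.37 in controls. It is named because it completes the 5 genes without overlap, and its difference was -0.084 (SE 0.101). Higher among the rest was rpl-22, an RNA-binding protein of the subunit surface, at 12.046, 12.143 and 12.002 with perchlorate and 11.92, 11.984 and 12.041 in controls. These overlap, with a difference of 0.08 (SE 0.106).

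In the small subunit the groups overlapped for all 30 genes, whereas 24.0% of all tested rows were without overlap. rps-20, a protein of the subunit head, was at 12.16, 12.59 and 12.29 with perchlorate and 12.51, 12.48 and 12.51 in controls. The perchlorate arrays lay on both sides of the tightly grouped controls, and the difference was -0.15 (SE 0.137, limma adjusted p = 0.622), or -0.058 without perchlorate replicate 1 and -0.27 without perchlorate replicate 2. rps-16, whose tail reaches the site of the peptidyl tRNA, was at 12.77, 12.95 and 12.65 with perchlorate and 12.93, 12.91 and 12.95 in controls. Perchlorate replicates 1 and 3 lay below every control, and the difference was -0.14 (SE 0.119), or -0.069 without perchlorate replicate 3 and -0.222 without perchlorate replicate 2. rps-27A, which encodes a ubiquitin-like domain fused to a ribosomal protein, was at 12.75, 12.81 and 12.68 with perchlorate and 12.85, 12.79 and 12.87 in controls, a difference of -0.087 (SE 0.104).

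Along the path of the messenger RNA, rps-2 and rps-3 encode proteins of the entry channel, and rps-23 and rps-15 encode proteins near the decoding centre. rps-2 was at 11.93, 12.05 and 11.87 with perchlorate and 12.09, 12.02 and 12.02 in controls, a difference of -0.096 (SE 0.107). rps-15 was at 12.48, 12.58 and 12.46 with perchlorate and 12.38, 12.42 and 12.48 in controls, the highest difference in the subunit at 0.08 (SE 0.104, limma adjusted p = 0.737). Both overlap with the controls, and rps-3 and rps-23 differed by -0.07 and 0.032. The next highest genes, rps-17, rps-11 and rps-9, differed by 0.052, 0.039 and 0.038, and without perchlorate replicate 2 rps-15, rps-17 and rps-9 differed by 0.045, 0.0033 and -0.012. rps-11 differed by 0.017 without control replicate 2. rps-6, known as the target of the S6 kinase that reports on growth signalling, differed by -0.04.

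Genes of shorter span tended to lie higher than genes of longer span. The span is the genomic length of the gene, introns included, in the RefSeq table of assembly WBcel235, which lists all 75 genes. Among the 36 genes longer than the median span of 756 bp, 31 lay below 0 and the median log2 difference was -0.057. Among the 39 genes of 756 bp or less, 17 lay below 0 and the median was 0.005. Across the 75 genes Spearman's rho of the difference with the span was -0.465, and it was -0.483 in the large and -0.469 in the small subunit. Pearson's r with log2 span was -0.431 over all, -0.473 in the large and -0.297 in the small subunit. These genes were measured on the same 6 arrays and are not independent replicates. The longer genes had medians of -0.095, 0.01 and -0.105 on perchlorate replicates 1, 2 and 3, against 0.011, -0.017 and 0.00067 on control replicates 1, 2 and 3. The shorter genes had medians of 0.009, 0.034 and -0.0047 with perchlorate, against 0.013, -0.044 and 0.026 in controls. Leaving out any 1 array, the median difference stayed between -0.099 and -0.035 for the longer genes and between -0.0055 and 0.026 for the shorter ones. The same tendency was present beyond the ribosome. Over 18847 protein-coding rows rho was -0.298, and over the 1145 of these in the brightest 5% of rows it was -0.446.

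**Figure D3:**
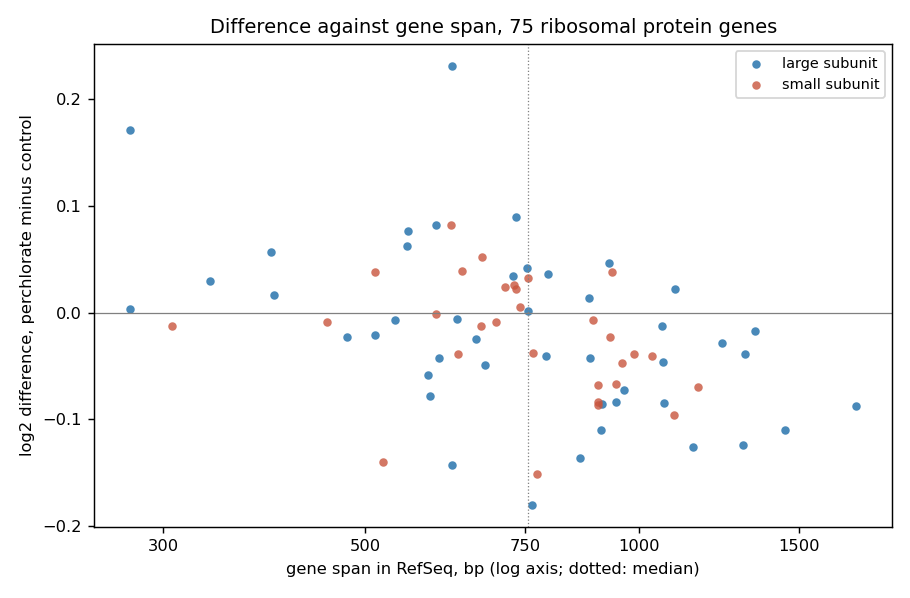
Log2 difference (perchlorate minus control, y axis) of each of the 75 ribosomal protein genes against its genomic span in bp on a log axis (x axis), blue for the large and red for the small subunit; the dotted line is the median span of 756 bp. Most genes right of the dotted line lie below 0, 31 of 36, beside 17 of 39 at or left of it.

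By chromosome the 75 genes were spread as 21 on I, 11 on II, 18 on III, 16 on IV, 7 on V and 2 on X, and the medians of their log2 differences lay between -0.064 (X) and 0.0033 (II). Of pairs of members that are direct neighbours among protein-coding genes there were 2. In the first, rps-10 and rpl-24, the differences were -0.039 and -0.046, and in the second, rps-14 and rpl-36, they were -0.0017 and 0.016.

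Ribosomal proteins named outside the rule lay in the same range, apart from rplp-0 and rack-1. Both lay below -0.18, the lowest difference among the 75 genes, and had larger spread on the perchlorate arrays. The acidic stalk, which recruits the translation factors with GTPase activity, is encoded by rplp-0, rplp-1, rplp-2.1 and rplp-2.2. rplp-0 was at 12.48, 12.91 and 12.58 with perchlorate and 12.91, 12.89 and 12.86 in controls, a difference of -0.23 (SE 0.139, limma adjusted p = 0.456), and the other stalk genes differed by -0.092, -0.047 and 0.025. rpsa-1, of the small subunit, differed by -0.033. rack-1, a scaffold protein on the small subunit, was at 11.88, 12.25 and 11.79 with perchlorate and 12.29, 12.26 and 12.24 in controls. The difference was -0.29 (SE 0.145, limma adjusted p = 0.368). Its 95% interval, from -0.63 to 0.051, reached beyond a 1.5-fold decrease, unlike those of the 75 genes. In both rplp-0 and rack-1 perchlorate replicate 2 lay at the control level and replicates 1 and 3 below it. ubq-2, which encodes ubiquitin fused to a large-subunit protein, was at 13.21, 13.20 and 13.22 with perchlorate and 13.17, 13.11 and 13.15 in controls, without overlap, and differed by 0.069 (SE 0.099).

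In the other lists of translation genes, fewer genes passed at an unadjusted limma p under 0.05 than the 16.4% of all tested rows, namely 8.33% for elongation and termination, 3.23% for initiation and 7.69% for rescue and surveillance. Of 12 measured elongation and termination genes, 1 was higher and 0 lower at that threshold, and the median log2 difference was 0.026, or 0.011 without perchlorate replicate 2. The 1 gene was dph-1, whose product makes the diphthamide residue of elongation factor 2, at 8.93, 8.96 and 9.14 with perchlorate and 8.61, 8.52 and 8.58 in controls. It differed by 0.44 (SE 0.111, limma adjusted p = 0.159). Of 31 initiation factor genes 0 were higher and 1 lower at the unadjusted threshold, and the median of 0.0033 was -0.034 without perchlorate replicate 2. The 1 gene was pab-2, for a poly(A)-binding protein, which differed by -0.48 (SE 0.147, limma adjusted p = 0.198). Of 13 ribosome rescue and messenger surveillance genes 1 was higher and 0 lower, and the median of 0.017 was -0.024 without perchlorate replicate 1. That gene was smg-4, of nonsense-mediated decay, at 0.37 (SE 0.142, limma adjusted p = 0.269).

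Among genes that build ribosomes or regulate growth, the shares past the unadjusted threshold were below the 16.4% of all tested rows. The exception was RNA polymerase I, with 1 gene of 5. Shares without overlap were above the 24.0% of all tested rows. They were 30.2% for biogenesis (11 higher and 2 lower), 60.0% for RNA polymerase I (3 higher and 0 lower) and 36.4% for regulators (1 higher and 7 lower). Of 43 measured ribosome biogenesis genes 26 lay above 0 and 17 below (39.5%, beside 44.8% of all rows), and 3 were higher and 2 lower at an unadjusted p under 0.05 (11.6%). Their median was 0.087, or 0.045 without perchlorate replicate 2. emg-1, an rRNA methyltransferase gene, differed by 0.5 (SE 0.142, limma adjusted p = 0.18), nol-16 by 0.41 (SE 0.117), and ncl-1, which represses rRNA synthesis and nucleolar size, by -0.43 (SE 0.127). Of 5 RNA polymerase I genes 4 lay above 0, 1 was higher and 0 lower at that threshold (20.0%), and the median was 0.13, or 0.082 without control replicate 1. rpac-19, a subunit shared with RNA polymerase III, was at 11.02, 10.94 and 10.99 with perchlorate and 10.52, 10.56 and 10.67 in controls, a difference of 0.4 (SE 0.105, limma adjusted p = 0.163). Of 22 regulators of translation and growth 17 lay below 0 (77.3%, beside 44.8% of all rows), with a median of -0.16, and 0 were higher and 3 lower at that threshold (13.6%). These were mml-1, a Myc-like transcription factor gene, aak-2, for a catalytic subunit of AMP-activated kinase, and pha-4, a forkhead factor gene, with differences of -0.47, -0.47 and -0.45. In each of these lists 0 genes passed at a limma adjusted p under 0.05 over all rows.

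Mitochondrial ribosomal proteins, which are likewise nuclear-encoded but serve the organelle, gave other values on the same arrays. Of 70 measured genes 64 lay above 0, beside 27 of the 75 cytosolic ones, and the median log2 differences were -0.021 for the cytosolic and 0.19 for the mitochondrial genes. Below 0 thus lay 8.57% of the mitochondrial genes, beside 44.8% of all tested rows. At an unadjusted limma p under 0.05, 17 mitochondrial genes were higher and 0 lower (24.3%, beside 16.4% of all rows), and the groups did not overlap for 36 higher and 1 lower (52.9%, beside 24.0% of all rows). The median of the mitochondrial genes relative to the control means was 0.214, 0.225 and 0.095 on the perchlorate arrays and -0.034, -0.03 and 0.061 on the control arrays. The lists also differed in level, with median log2 levels of 12.6 for the cytosolic and 9.48 for the mitochondrial genes. The median log2 difference was 0.033 over all tested rows and -0.019 among the brightest rows. The part of level was not tested, and no test of the difference between the 2 lists was made.

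**Figure D4:**
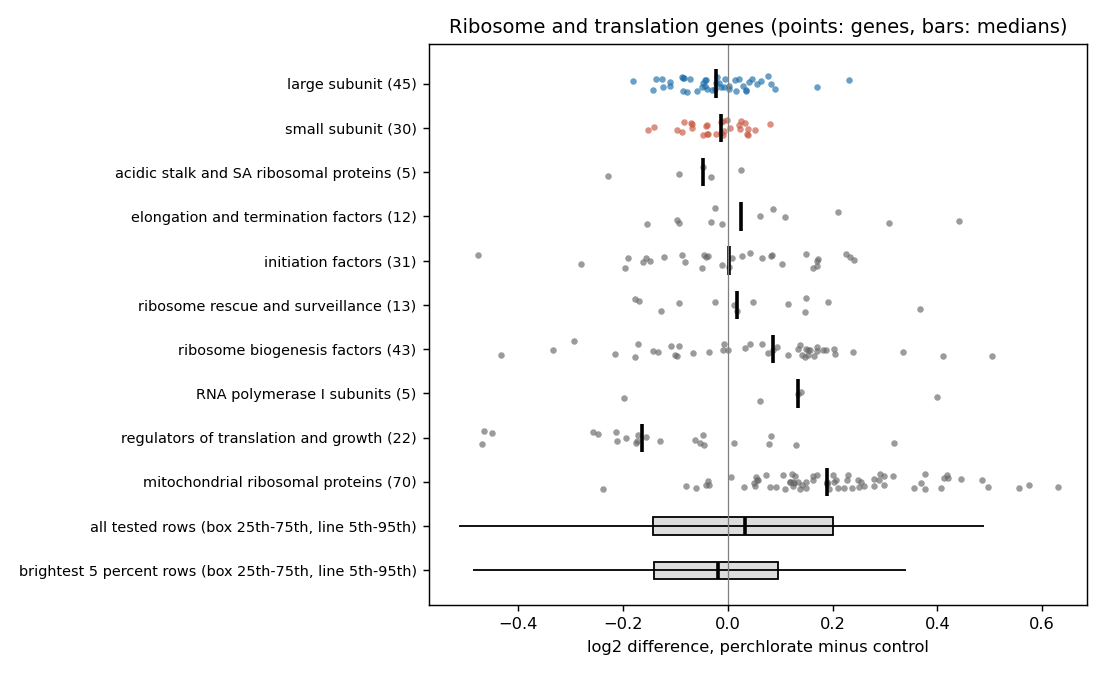
Log2 difference (perchlorate minus control, x axis) of single genes (points) with list medians (bars) for the cytosolic ribosomal protein genes and other ribosome and translation lists (y axis, number of genes in brackets), above boxes for all tested rows and for the brightest 5% of rows. The cytosolic genes cluster around -0.021, inside the box of all rows, while the mitochondrial ones centre on 0.19.

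The arrays also differed in stage-related transcripts, and a perchlorate array stood apart. All 15 moulting-cycle genes lay below 0, 13 of them at an unadjusted limma p under 0.05 and without overlap (86.7%, beside 16.4% and 24.0% of all rows), with a median log2 difference of -1.19, or -0.83 without perchlorate replicate 1. Their medians relative to the control means were -1.71, -0.92 and -0.75 on perchlorate replicates 1, 2 and 3 and 0.062, 0.11 and -0.188 on the control arrays. Of 5 measured yolk genes, which are expressed from the late L4 and adult stages, 3 lay above 0 with a median of 0.295, or 0.159 without perchlorate replicate 1, and 2 were higher and 0 lower at the unadjusted threshold. Of 12 germline genes 8 lay above 0, with a median of 0.04 that was -0.017 without control replicate 3, and of 4 sperm msp genes all 4 did, with a median of 0.091, or 0.137 without control replicate 3; in both lists 0 passed at the unadjusted threshold. Perchlorate replicate 1 stood apart on the first principal component of all rows, where it scored 47.7, replicates 2 and 3 scored 12.2 and 13.1, and the controls all scored below 0. Without that array the median of the ribosomal protein genes was -0.016, and 4 were higher and 5 lower without overlap, beside 33.2% of all rows. The ribosomal medians were alike on perchlorate replicates 1 and 3, at -0.041 and -0.042, where the moulting medians were -1.71 and -0.75. The part of stage in the ribosomal values was not tested. The labels do not say that the replicates came from separate cultures, so the spread behind the p-values is that of these samples and may be technical.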

How the data were processed

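Total RNA of 6 whole-larva samples was amplified into biotin-labelled cDNA and hybridised to Affymetrix arrays, per the labels' protocols. The values the authors deposited are on the log2 scale, 1 per probe set. The submitters' processing notes name RMA and Affymetrix Expression Console; versions and a genome build are not given in the sources used here. RMA corrects background, quantile-normalises arrays and summarises probes. The table held 29317 rows, of which 26192 had at least 1 gene symbol in the platform annotation and were tested; 25546 had 1 symbol, 646 several and 3125 none. No gene was named from a row with several.

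Groups came from the sample titles. The contrast, perchlorate minus control, was fitted with limma 3.58.1 in R 4.3.3 (lmFit, eBayes without trend, two-sided, Benjamini-Hochberg over all tested rows, threshold 0.05), with 4 residual and 3.12 prior degrees of freedom. The values were used with no further normalisation or filter. The number of arrays limits the precision. Intervals are 95% intervals of the moderated fit. The scripts were tested on simulated data.

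The members and lists were chosen with earlier results of these data known. Lists were matched by symbol, and 31 of 36 initiation, 12 of 14 elongation, 43 of 56 biogenesis, 5 of 8 RNA polymerase I, 22 of 23 regulator, 13 of 14 rescue and 5 of 6 yolk symbols were measured. Lists are described by counts and medians, with no set test. Genes named with values were the 4 highest and 4 lowest differences of each subunit, numbered paralogue pairs, members without overlap opposite to their subunit's median, and up to 3 genes of smallest p per other list. Structural groups, gene span, the stalk list and single genes beside these were chosen after values were seen. Deviations from the group mean in same-numbered perchlorate and control samples had correlations of 0.0285, -0.018 and -0.0061 over all rows. Over the ribosomal protein genes these were -0.165, 0.182 and 0.150 for replicates 1, 2 and 3. Low correlations cannot show that samples were handled separately, so whether the numbers pair them is not known. Alternatives covered scaling, filters, prior, limma treat against a 1.2-fold change, array weights, a replicate block and each array left out.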

Additional observations from a re-analysis of the deposited data

How the results depend on the processing

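In every alternative run, 0 of the 75 ribosomal protein genes passed at a limma adjusted p under 0.05, also in limma treat against a 1.2-fold change. Over the alternatives that test against 0, the smallest such p lay between 0.226 (trended and robust prior) and 0.662 (without control replicate 1). With a replicate block the smallest was 0.511, also with 0 genes at an unadjusted p under 0.05. The trended and robust prior lowered the median SE of these genes to 0.0554, and 3 genes were then lower at an unadjusted p under 0.05, rpl-13A, rpl-13 and rpl-23A.1, beside 18.1% of all rows.

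Counts without overlap, 2 higher and 3 lower, became 6 higher after repeated quantile normalisation and 0 higher and 1 lower after centring arrays on their medians; leaving out each array gave 2 to 10 higher (10 without control replicate 3) and 3 to 30 lower (30 without perchlorate replicate 2). Over all rows, 0 higher and 2 lower passed adjusted; this became 0 lower with the replicate block, 1 lower with repeated quantile normalisation, with centring and with all rows tested, 26 higher and 71 lower among rows above the median, 103 higher and 225 lower with the trended and robust prior, and 0 lower without any 1 array. Rows at an unadjusted p under 0.05 numbered 2793 to 4589, and rows without overlap 8046 to 9791, on leaving out each array.

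The subunit medians stayed below 0 except after repeated quantile normalisation (0.00069 large, 0.0024 small). Their difference was -0.0017 with that setting, 0.00048 with array weights, and -0.013 to 0.0115 on leaving out each array, so its sign is not settled. On leaving out single arrays the difference of rpl-11.2 ranged from -0.026 to 0.078, that of rps-9 from -0.012 to 0.0845, and the RNA polymerase I median from 0.082 to 0.145. Differences that moved by over 1.5 times but kept their sign included those of rpl-13 (-0.19 to -0.087), rpl-22 (0.042 to 0.113), rpl-23A.2 (-0.098 to -0.025), rps-2 (-0.146 to -0.056) and rps-27A (-0.119 to -0.053). The causes were not tested.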
